A study of Gallus gallus with 9 samples.

Results

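The M-band and thick filament binding genes described here encode the proteins that hold myosin filaments in register in the sarcomere. They were chosen by symbol from a list of 8 names, MYOM1, MYOM2, MYOM3, MYBPC1, MYBPC2, MYBPC3, MYBPH and TTN. The deposited tables pair 6 of these 8 symbols with a gene, out of 24881 genes with an Ensembl identifier. Of these 24881 genes, 11076 carry a symbol. MYBPC2 and TTN were matched to no row by symbol and were not analysed here.

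RNA sequencing was done on primary myoblasts from skeletal muscle of chicken embryos, in 3 groups of 3 libraries, all at passage 1. PM cells were collected directly after serial plating, a step that enriches myoblasts. GM cells, labelled proliferating myoblasts, were grown in RPMI-1640 with 15% fetal bovine serum. DM cells, labelled differentiated myotubes, had spent 4 days in RPMI-1640 with 2% horse serum. No genetic change or drug is labelled in any group, and both media held penicillin and streptomycin. The labels give neither the age of the embryos nor whether replicates came from separate embryos or cultures. Each p-value therefore covers the spread among these libraries alone, which may be technical.

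A sarcomere slides thin actin filaments past thick myosin filaments. At its centre, in the M-band, myomesins crosslink neighbouring myosin filaments and anchor the elastic protein titin. On either side, myosin binding proteins of the C and H types sit on the myosin filament in regular stripes, where the C type also tunes how myosin heads meet actin. In mammals MYBPC1 is the slow skeletal form and MYBPC3 the cardiac form of the C protein.

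The libraries held 15731818 to 27110310 reads in Ensembl genes. Of these genes, 14796 had enough reads to be tested, all 6 described here among them. The median log2 fold change of all tested genes was -0.01 in GM versus PM, 0.00 in DM versus GM and 0.02 in DM versus PM. On FPKM values (read counts scaled by gene length and by library size) with a pseudocount of 0.1, the median of GM versus PM was 0.13 and that of DM versus PM 0.11. The defining regulators of the lineage, MYOD1 and MYF5, and the filament gene DES had reads in every library. MYOD1 stood at 321 to 344 FPKM in PM, 214 to 288 FPKM in GM and 136 to 158 FPKM in DM. MYF5 stood at 380 to 421 FPKM in PM, 185 to 360 FPKM in GM and 30.1 to 46.7 FPKM in DM. The markers MYOG and TNNT3 of differentiating muscle were present in every library too. TNNT3 stood at 57.5 to 67.6 FPKM in PM, 407 to 966 FPKM in GM and 309 to 360 FPKM in DM. Its log2 fold change in GM versus PM, 3.16, was the largest of the tested myotube markers. That of TMEM8C was 0.59 (edgeR adjusted p = 0.0533). The tables list 25950 features for PM and 26591 for GM and DM, so any separate processing of the PM libraries and their condition cannot be told apart. Since whole cultures were sequenced, fewer cells of a type and less RNA per cell cannot be told apart in any comparison.

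The 6 genes lie on 6 chromosomes. In the coordinates of the tables, whose build is not given, MYOM1 (ENSGALG00000014847) spans 101194874 to 101272482 on the plus strand of chromosome 2. MYOM2 (ENSGALG00000016342) spans 91089249 to 91163384 on the minus strand of chromosome 3, and MYOM3 (ENSGALG00000004155) spans 5648230 to 5671410 on the minus strand of chromosome 23. MYBPC1 (ENSGALG00000012783) spans 55652011 to 55723269 on the minus strand of chromosome 1, and MYBPC3 (ENSGALG00000008148) spans 22981961 to 23039476 on the plus strand of chromosome 5. MYBPH (ENSGALG00000000164) spans 1001411 to 1010920 on the minus strand of chromosome 26, and RefSeq lists the chicken gene under the symbol MYBPHL with MYBPH as a synonym. No other Ensembl gene overlapped any of these 6 spans on either strand. Nor did any feature without an Ensembl identifier listed for GM replicate 1. Such features of the other libraries were not searched.

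Among the myomesins, MYOM1, the general myomesin of striated muscle, was low in PM, highest in GM and intermediate in DM. It stood at 9.32, 8.07 and 8.41 FPKM in PM replicates 1 to 3, at 43.4, 47.2 and 101 FPKM in GM, and at 18.0, 18.5 and 21.2 FPKM in DM. The ranges of the 3 groups did not overlap. Group means were 8.60 ± 0.646, 64.0 ± 32.4 and 19.3 ± 1.74 FPKM (SD, n = 3).

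MYOM2 encodes M-protein, which in mammals is found in fast fibres and heart. It stood at 1.38, 1.59 and 1.07 FPKM in PM, at 17.7, 18.4 and 42.0 FPKM in GM and at 20.9, 21.9 and 27.0 FPKM in DM. The GM and DM ranges overlapped, and both lay above every PM library. Group means were 1.35 ± 0.259, 26.0 ± 13.9 and 23.3 ± 3.26 FPKM (SD, n = 3).

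MYOM3, the third myomesin, already had the highest level of the 6 genes in PM. It stood at 24.5, 23.5 and 23.0 FPKM in PM, at 67.4, 57.7 and 133 FPKM in GM and at 22.6, 25.2 and 28.2 FPKM in DM. All GM libraries lay above all others, and the PM and DM ranges overlapped. Group means were 23.7 ± 0.771, 86.1 ± 41.0 and 25.3 ± 2.77 FPKM (SD, n = 3).

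Among the myosin binding proteins, MYBPC1 went from 9 or fewer reads per library in PM to 488 or more in DM. PM replicates 1 to 3 had 9, 7 and 7 reads, GM replicates 42, 43 and 229, and DM replicates 488, 589 and 695. The exact Poisson interval (95%, counting error only, not scaled for depth) of 9 reads runs from 4.12 to 17.1 and that of 42 reads from 30.3 to 56.8. In FPKM the levels were 0.156, 0.117 and 0.0928 in PM, 0.475, 0.516 and 2.31 in GM and 5.77, 7.16 and 8.83 in DM, with no overlap between groups. Group means were 0.122 ± 0.0319, 1.10 ± 1.05 and 7.26 ± 1.53 FPKM (SD, n = 3).

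MYBPC3 stood at 4.998, 5.18 and 4.16 FPKM in PM, at 44.0, 47.4 and 95.6 FPKM in GM and at 34.9, 29.8 and 34.6 FPKM in DM. The 3 groups did not overlap. Group means were 4.78 ± 0.548, 62.3 ± 28.9 and 33.1 ± 2.85 FPKM (SD, n = 3).

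MYBPH encodes the smaller H protein of the same stripes. It was almost level in PM at 16.9, 16.9 and 17.1 FPKM, reached 90.7, 75.2 and 207 FPKM in GM and stood at 18.5, 18.3 and 16.8 FPKM in DM. Every GM library lay above every other library, and the PM and DM ranges overlapped. Group means were 16.9 ± 0.102, 124 ± 72.0 and 17.9 ± 0.956 FPKM (SD, n = 3).

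**Figure D1:**
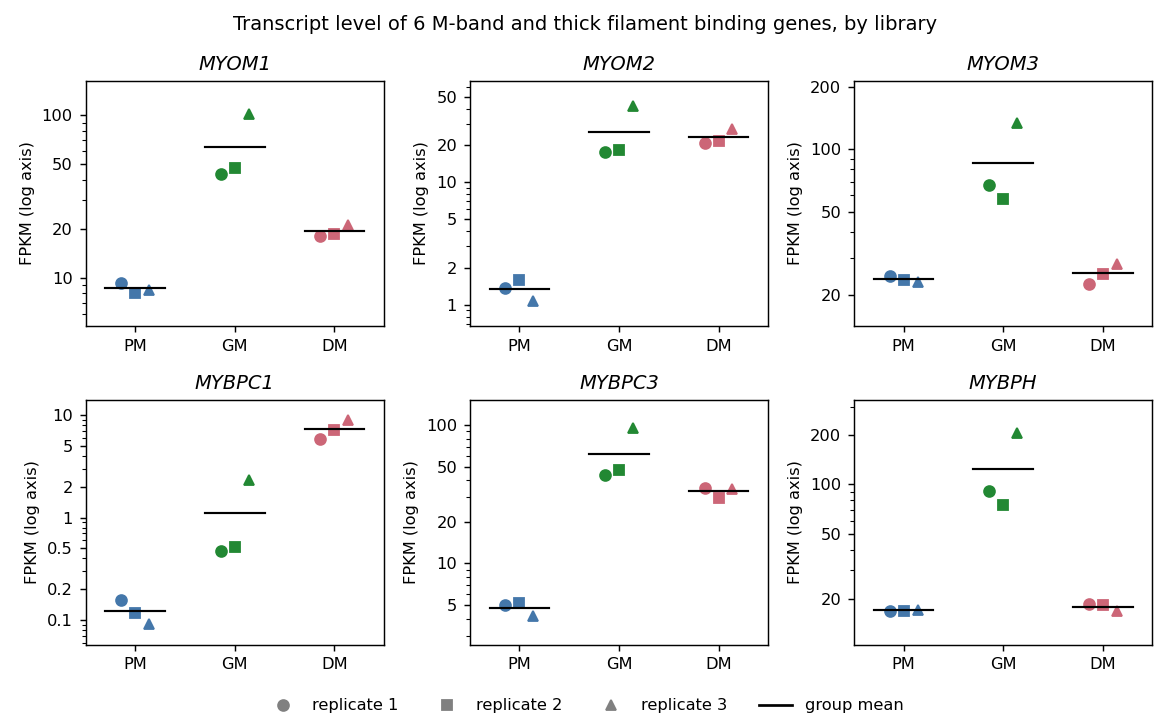
FPKM (log axis) of each gene in the 9 libraries, 1 panel per gene, with symbols for replicates 1 to 3 and a line at the group mean. The GM libraries lie above the PM libraries in all 6 panels, GM replicate 3 is the highest GM library in each, and the DM libraries are the highest of all only for MYBPC1.

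The GM versus PM comparison asked how cells in growth medium differed from cells just after plating. All 6 genes rose (edgeR's quasi-likelihood test, adjusted p below 0.05), against 66.1% of all tested genes that were called, 32.0% higher and 34.1% lower. The log2 fold changes ran from 1.73 for MYOM3 to 4.15 for MYOM2. MYOM2 rose by 4.15 (SE 0.41, edgeR adjusted p = 4.28e-05), and 72 of the 14796 tested genes had a higher value. MYBPC3 rose by 3.57 (SE 0.33, edgeR adjusted p = 2.42e-05) and MYOM1 by 2.76 (SE 0.33, edgeR adjusted p = 1.34e-04). MYBPH rose by 2.74 (SE 0.38, edgeR adjusted p = 3.00e-04) and MYOM3 by 1.73 (SE 0.30, edgeR adjusted p = 0.00108). MYBPC1 rose by 3.08 with the widest error (SE 0.84, edgeR adjusted p = 0.0113), from 23 reads over the 3 PM libraries to 314 over the 3 GM libraries. In ratios of mean FPKM, MYOM2 was 19.3 times, MYBPC3 13.0 times, MYBPC1 9.04 times, MYOM1 7.44 times, MYBPH 7.33 times and MYOM3 3.64 times its PM level. The GM libraries lay above all PM libraries for all 6 genes, as they did for 40.1% of all tested genes, and 29.7% lay wholly below.

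Without GM replicate 3 the rises were smaller, and all 6 genes still passed. Of all 14796 tested genes, 4834 then rose and 4979 fell. The log2 fold change of MYBPC1 was then 1.87 (SE 0.32, edgeR adjusted p = 1.73e-04), that of MYBPH 2.12 (SE 0.09, edgeR adjusted p = 7.99e-10), that of MYOM2 3.59 and that of MYOM3 1.24. With all libraries the SE was 0.84 for MYBPC1 and 0.38 for MYBPH. The lower p-values without GM replicate 3 went with a smaller SE, not with larger rises. On quantile-normalized log2(FPKM + 1) the MYBPC1 difference was 0.67 and did not pass (limma adjusted p = 0.0626).

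The DM versus GM comparison asked how cells after 4 days in differentiation medium differed from cells in growth medium. No culture time is given here for GM, so medium and time in culture cannot be told apart. Here the 6 genes divided. MYBPH, MYOM3, MYOM1 and MYBPC3 fell, MYBPC1 rose, and MYOM2 was not called. Of all tested genes 61.1% were called, 30.3% lower and 30.8% higher. MYBPH fell by 2.75 on the log2 scale (SE 0.38, edgeR adjusted p = 3.26e-04), and 234 tested genes had a lower value. MYOM3 fell by 1.72 (SE 0.30, edgeR adjusted p = 0.00124) and MYOM1 fell by 1.69 (SE 0.32, edgeR adjusted p = 0.00192). MYBPC1 rose by 2.73 (SE 0.55, edgeR adjusted p = 0.00277), and 270 tested genes had a higher value. In mean FPKM, GM exceeded DM 6.95 times for MYBPH, 3.40 times for MYOM3, 3.32 times for MYOM1 and 1.88 times for MYBPC3, while DM exceeded GM 6.59 times for MYBPC1. The DM libraries of those 4 genes lay below every GM library, as did those of 35.8% of tested genes, and the DM libraries of MYBPC1 lay above every GM library, as did those of 30.8%.

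MYBPC3 and MYOM2 were the uncertain cases of this step. MYBPC3 fell by 0.87 on the log2 scale (SE 0.29, edgeR adjusted p = 0.0303). Its call, though hardly its size, was lost under 4 alternatives. The log2 fold change was -0.80 without DM replicate 2 (edgeR adjusted p = 0.0759) and -0.89 without DM replicate 3 (edgeR adjusted p = 0.0635). It was -0.85 without the low-count filter (edgeR adjusted p = 0.0779) and -0.79 with the gene length trend removed (edgeR adjusted p = 0.0518). Without GM replicate 3 it was -0.39 and passed, with a smaller SE (0.09, edgeR adjusted p = 0.00205). MYOM2 differed by -0.12 (SE 0.34, edgeR adjusted p = 0.785) with all libraries. Without GM replicate 3 the direction turned and the gene passed (0.45 with SE 0.12, edgeR adjusted p = 0.00535). The rise of MYBPC1 was 3.94 without that library (SE 0.21, edgeR adjusted p = 2.37e-09), and the falls of MYBPH, MYOM3 and MYOM1 were -2.14, -1.23 and -1.16.

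The DM versus PM comparison set the differentiated cultures against the starting cells. MYBPC1, MYOM2, MYBPC3 and MYOM1 rose, and MYOM3 and MYBPH passed in neither direction. Of all tested genes 66.2% were called, 33.5% higher and 32.7% lower. MYBPC1 rose by 5.81 (SE 0.76, edgeR adjusted p = 2.07e-04), from 23 reads over the PM libraries to 1772 over the DM libraries, and 35 tested genes had a higher value. On log2(FPKM + 1), which compresses low levels, the rise was 2.86, and it was 2.70 after quantile normalization, both called by limma. The rise of MYOM2 was 4.03 (SE 0.41, edgeR adjusted p = 4.78e-05), that of MYBPC3 2.71 (SE 0.32, edgeR adjusted p = 1.04e-04) and that of MYOM1 1.07 (SE 0.32, edgeR adjusted p = 0.0178). The 4 rising genes had DM libraries above all PM libraries, as had 41.3% of tested genes, while 32.4% had them wholly below.

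MYOM3 and MYBPH were not called in DM versus PM. Their log2 fold changes were 0.01 (SE 0.30, edgeR adjusted p = 0.988) and -0.01 (SE 0.37, edgeR adjusted p = 0.977), with mean FPKM in DM at 1.07 and 1.05 times the PM level. The SE values of DM versus PM rest on a spread estimated over all 9 libraries, the GM libraries included. With only the 6 PM and DM libraries fitted, the SE was 0.07 for MYOM3, 0.08 for MYBPH, 0.08 for MYOM1 and 0.10 for MYBPC3. The same 4 genes were called in that fit, where 5249 of all 14796 tested genes rose and 5067 fell. The MYOM1 call was lost with the gene length trend removed (log2 fold change 0.68, edgeR adjusted p = 0.108). These comparisons share libraries in pairs and are not independent of each other.

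**Figure D2:**
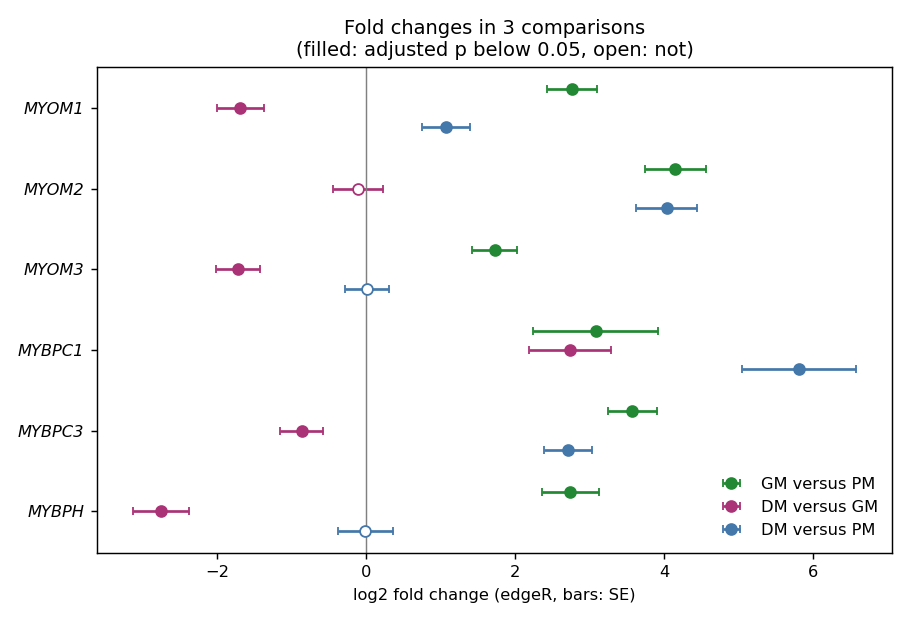
Log2 fold changes of the 6 genes (edgeR, bars are SE) in the 3 comparisons, filled where the adjusted p is below 0.05. All 6 GM versus PM values are positive and filled, MYBPC1 alone is positive and filled in DM versus GM, and MYOM3 and MYBPH sit at 0.01 and -0.01 in DM versus PM.

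Within each family the proportions differed between the 3 groups. MYOM3 made up 69.6% to 70.9% of the summed myomesin FPKM in PM libraries, 46.8% to 52.5% in GM and 36.8% to 38.4% in DM. MYOM2 made up 3.30% to 4.79% in PM, 13.7% to 15.2% in GM and 33.4% to 35.4% in DM. The share of MYOM1 was 24.3% to 26.5% in PM, 33.8% to 38.3% in GM and 27.8% to 29.2% in DM. None of these ranges overlapped between groups. The mean shares in DM were 37.3% ± 0.895 for MYOM3, 34.3% ± 0.995 for MYOM2 and 28.4% ± 0.743 for MYOM1 (SD, n = 3). In each of the 3 DM libraries MYOM3 was above MYOM2 and MYOM2 above MYOM1.

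Among the 3 myosin binding proteins measured, MYBPH held 76.1% to 80.1% of the summed FPKM in PM, 61.1% to 67.9% in GM and 27.9% to 33.1% in DM. MYBPC3 held 19.5% to 23.4% in PM, 31.4% to 38.5% in GM and 53.9% to 59.0% in DM, so that it passed MYBPH in every DM library. MYBPC1 held 0.436% to 0.707% in PM, 0.352% to 0.759% in GM and 9.75% to 14.7% in DM. Its PM and GM ranges overlapped although its level was higher in GM, and its DM range lay above both. MYBPC2, the fast skeletal form in mammals, is missing from these sums.

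**Figure D3:**
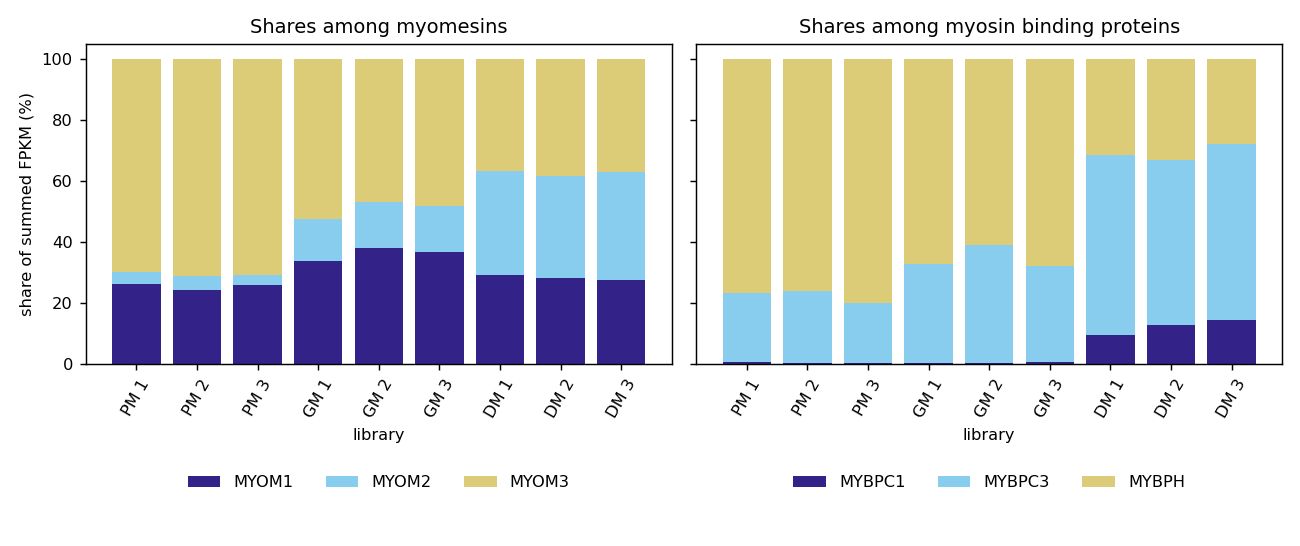
Share (%) of each gene in the summed FPKM of the 3 myomesin genes (left) and of the 3 myosin binding protein genes (right), 1 bar per library. The MYOM2 share is 3.30% to 4.79% in PM and 33.4% to 35.4% in DM, and the MYBPH share is 76.1% to 80.1% in PM and 27.9% to 33.1% in DM.

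The summed level of all 6 genes was 53.8 to 57.3 FPKM in PM, 246 to 581 FPKM in GM and 121 to 137 FPKM in DM. Together they took 0.0199% to 0.0214% of Ensembl gene reads in PM, 0.0922% to 0.210% in GM and 0.0498% to 0.0572% in DM. By mean FPKM the order in PM was MYOM3, MYBPH, MYOM1, MYBPC3, MYOM2 and MYBPC1, with no overlap between neighbours. In GM the order was MYBPH, MYOM3, MYOM1, MYBPC3, MYOM2 and MYBPC1, and the ranges of the first 4 overlapped in sequence. Within each of the 3 GM libraries MYBPH was above MYOM3 and MYOM3 above MYOM1, while MYOM1 was above MYBPC3 in 1 of 3. In DM the order was MYBPC3, MYOM3, MYOM2, MYOM1, MYBPH and MYBPC1. MYBPC3 and MYBPC1 stood apart from their neighbours there, whereas the 4 genes between them overlapped in sequence.

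Levels of different genes rest on the length behind each FPKM. For MYOM3 and MYBPH the deposited FPKM used the listed lengths of 4321 and 2025 bases. For MYOM1 it used 4346 of 5444 listed bases, for MYOM2 4754 of 5214, for MYBPC3 4450 of 5098 and for MYBPC1 3594 of 3732, the same in all 9 libraries. Recomputed from listed lengths, an alternative chosen after seeing the data, MYBPC3 and MYOM1 exchanged places in GM (54.4 and 51.1 FPKM), as did MYBPH and MYOM1 in DM (17.9 and 15.4 FPKM). In DM the ranges of MYBPC3 and MYOM3 then overlapped. The mean share of MYOM1 became 21.6% in PM, 31.7% in GM and 24.9% in DM, where MYOM3 and MYOM2 held 40.9% and 34.2%. MYBPC3 still held more than MYBPH in DM (53.7% and 33.3%). Comparisons of a gene with itself between libraries are not affected by this.

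Replicates agreed more closely in PM and DM than in GM. The coefficient of variation of FPKM was 0.604% to 26.2% in PM, 5.34% to 21.1% in DM and 46.3% to 95.3% in GM. GM replicate 3 lay above the mean of the other GM libraries by 1.16 log2 units for MYOM1, 1.22 for MYOM2, 1.09 for MYOM3, 2.02 for MYBPC1, 1.07 for MYBPC3 and 1.32 for MYBPH (log2 of FPKM plus 0.1). The median over all tested genes deviated by -0.08 in that library. The median of 9 myotube markers deviated by 1.17. That of 6 myoblast markers was -0.05, the middle of shifts in both directions. DES and CDH15 stood at 1279 and 275 FPKM in GM replicate 3, against at most 613 and 147 FPKM in the other GM libraries. MYF5, MYF6 and PAX3 stood at 185, 33.4 and 1.16 FPKM, against at least 336, 44.3 and 1.53 FPKM. MYOD1 was at 288 FPKM, against 259 and 214 FPKM. The macrophage and erythroid lists deviated by 1.11 and 1.08 and the fibroblast list by -0.61. The part of these differences in the results was not tested. The proportions within the families moved less than the levels, though not equally for all genes. In GM replicates 1 to 3 the MYOM2 share was 13.7%, 14.9% and 15.2%, and the MYBPC1 share was 0.352%, 0.420% and 0.759%.

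**Figure D4:**
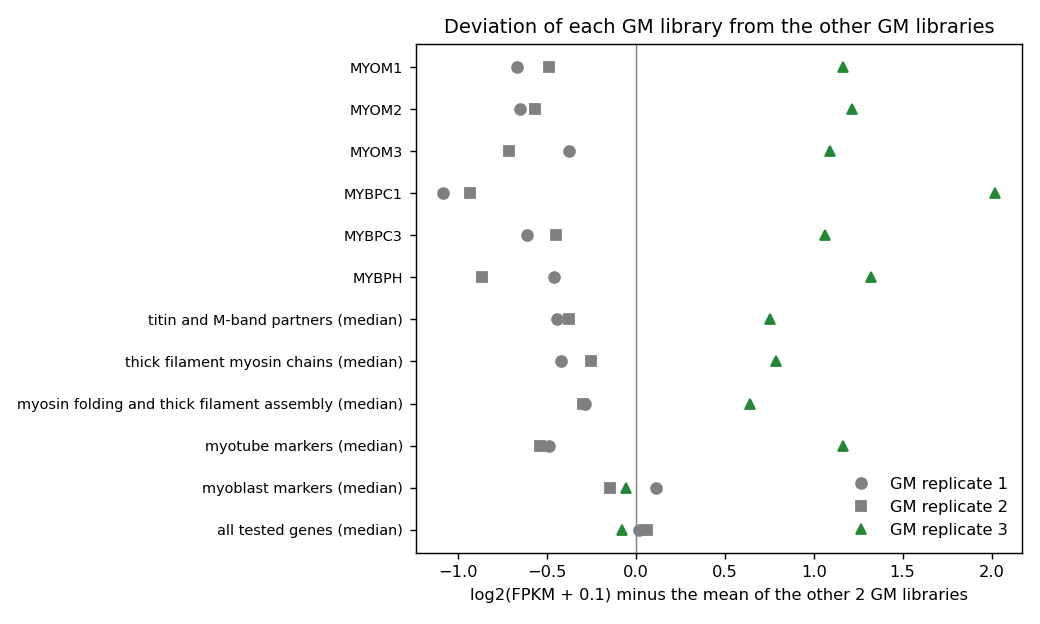
Deviation of each GM library from the mean of the other 2 GM libraries, as log2(FPKM + 0.1), for the 6 genes and for medians of gene lists. GM replicate 3 lies between 1.07 and 2.02 for the 6 genes, at 1.17 for the myotube markers and at -0.08 for all tested genes.

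Gene length was a second feature that moved with PM. Median log2 fold changes of GM versus PM rose with gene length, from -0.57 in the shortest to 0.53 in the longest of 8 length bins of genes with a mean log2 CPM of at least 3. Over the same bins they ran from -0.35 to 0.46 in DM versus PM and from 0.15 to -0.12 in DM versus GM. MYOM1, MYOM2 and MYBPC3 fall in the longest bin by listed length, MYOM3 in the next one and MYBPH in the middle of the range. MYBPC1 has a listed length within the same limits as MYOM3, but its mean log2 CPM was below 3, so it was in no bin. With the trend removed, the rises in GM were 2.28 for MYOM1, 3.70 for MYOM2, 1.38 for MYOM3, 2.83 for MYBPC1, 3.13 for MYBPC3 and 2.80 for MYBPH, and all 6 passed. In that fit 4555 of all 14796 tested genes rose and 4974 fell in GM versus PM.

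Other genes of the thick filament and its partners were described from lists matched by symbol. A listed gene without a match may still have a row that carries no symbol. The shares of all tested genes include genes without a symbol. Beside them, of all tested genes 32.0% rose and 34.1% fell in GM versus PM, 30.8% and 30.3% in DM versus GM and 33.5% and 32.7% in DM versus PM, with medians of -0.01, 0.00 and 0.02. Among titin and M-band partners, 17 of 24 listed genes were matched, and all 17 were tested. In GM versus PM 12 rose and 3 fell, with a median log2 fold change of 0.74. TRIM55, a ligase that binds titin near the M-band, rose from 19.5 ± 0.986 to 157 ± 85.1 FPKM (log2 fold change 2.87, edgeR adjusted p = 1.58e-04), and CAPN3, a protease that binds titin, rose from 1.77 ± 0.170 to 8.41 ± 3.95 FPKM. The Z-disc genes MYPN and ACTN2 rose by 3.94 and 3.56 on the log2 scale, and OBSL1 rose by 1.85.

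In DM versus GM 4 of the 17 partners rose and 8 fell, with a median of -0.34. TRIM55 fell to 47.0 ± 3.31 FPKM (log2 fold change -1.70, edgeR adjusted p = 0.00262). ENO3, the muscle enolase, rose from 3.98 ± 1.21 to 26.5 ± 1.53 FPKM in DM (log2 fold change 2.78, edgeR adjusted p = 6.17e-07). TRIM54, a ligase of the same family, fell from 101 ± 27.7 to 35.4 ± 1.77 FPKM (log2 fold change -1.45, edgeR adjusted p = 7.85e-05). MYPN and ACTN2 fell by 2.15 and 1.69 on the log2 scale. In DM versus PM 10 rose and 4 fell, with a median of 0.99. CAPN3, ACTN2, MYPN and ENO3 rose by 1.94, 1.86, 1.78 and 1.33. SQSTM1, an autophagy receptor that binds the titin kinase region through NBR1, fell from 108 ± 1.80 to 42.3 ± 2.12 FPKM (log2 fold change -1.44, edgeR adjusted p = 1.87e-06).

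Of the myosin chains that these genes' products bind, 8 of 24 listed were matched by symbol, and all 8 were tested. In GM versus PM 6 rose and 1 fell, with a median of 1.79. The heavy chain gene MYH15 rose from 63.9 ± 1.46 to 242 ± 107 FPKM (log2 fold change 1.79, edgeR adjusted p = 4.83e-04) and the light chain gene MYL1 from 138 ± 5.62 to 631 ± 371 FPKM (log2 fold change 2.06, edgeR adjusted p = 0.00127). MYL10, a regulatory light chain gene, rose by 0.91. The gene that fell was MYL3, the slow light chain, from 14.6 ± 1.08 to 9.70 ± 2.62 FPKM (log2 fold change -0.73, edgeR adjusted p = 0.00450). In DM versus GM 2 rose and 4 fell, with a median of -0.79. MYH15 fell to 94.4 ± 5.55 FPKM, and MYL4, an embryonic light chain in mammals, fell from 32.2 ± 2.76 to 6.03 ± 0.456 FPKM. MYL3 then rose to 27.3 ± 2.78 FPKM (log2 fold change 1.54, edgeR adjusted p = 2.32e-05), and MYL10 rose from 84.5 ± 23.0 to 181 ± 23.2 FPKM. In DM versus PM 5 rose and 1 fell, with a median of 1.07. MYL10, MYL1 and MYL3 rose by 2.06, 1.32 and 0.81 on the log2 scale, and MYL4 fell by 2.12.

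For myosin folding and filament assembly, 18 of 21 listed genes were matched by symbol, and all 18 were tested. In GM versus PM 13 rose and 3 fell, with a median of 0.74. UNC45B, the myosin chaperone of muscle, rose from 8.43 ± 0.347 to 55.0 ± 25.3 FPKM (log2 fold change 2.57, edgeR adjusted p = 8.77e-05), and KLHL41 and KLHL40, which stabilise sarcomere proteins, rose by 2.55 and 2.44. KLHL31 and MYLK4 rose by 3.63 and 2.99. In DM versus GM 3 rose and 12 fell, with a median of -0.90. UNC45B fell to 9.38 ± 0.270 FPKM (log2 fold change -2.50, edgeR adjusted p = 1.09e-04) and KLHL41 fell from 226 ± 60.9 to 39.4 ± 2.60 FPKM. The small heat shock protein genes HSPB8 and HSPB1 fell by 1.98 and 1.77, and KLHL40 fell by 1.83. In DM versus PM 6 rose and 5 fell, with a median of 0.07, and these shares of the 18 genes lie near those of all tested genes. MYLK4, a kinase of the myosin light chain kinase family, rose from 0.930 ± 0.316 to 11.3 ± 0.592 FPKM (log2 fold change 3.53, edgeR adjusted p = 7.07e-06). KLHL31 and MYLK2 rose by 2.66 and 1.85, and HSPB7 and HSPB1 fell by 1.62 and 1.24.

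**Figure D5:**
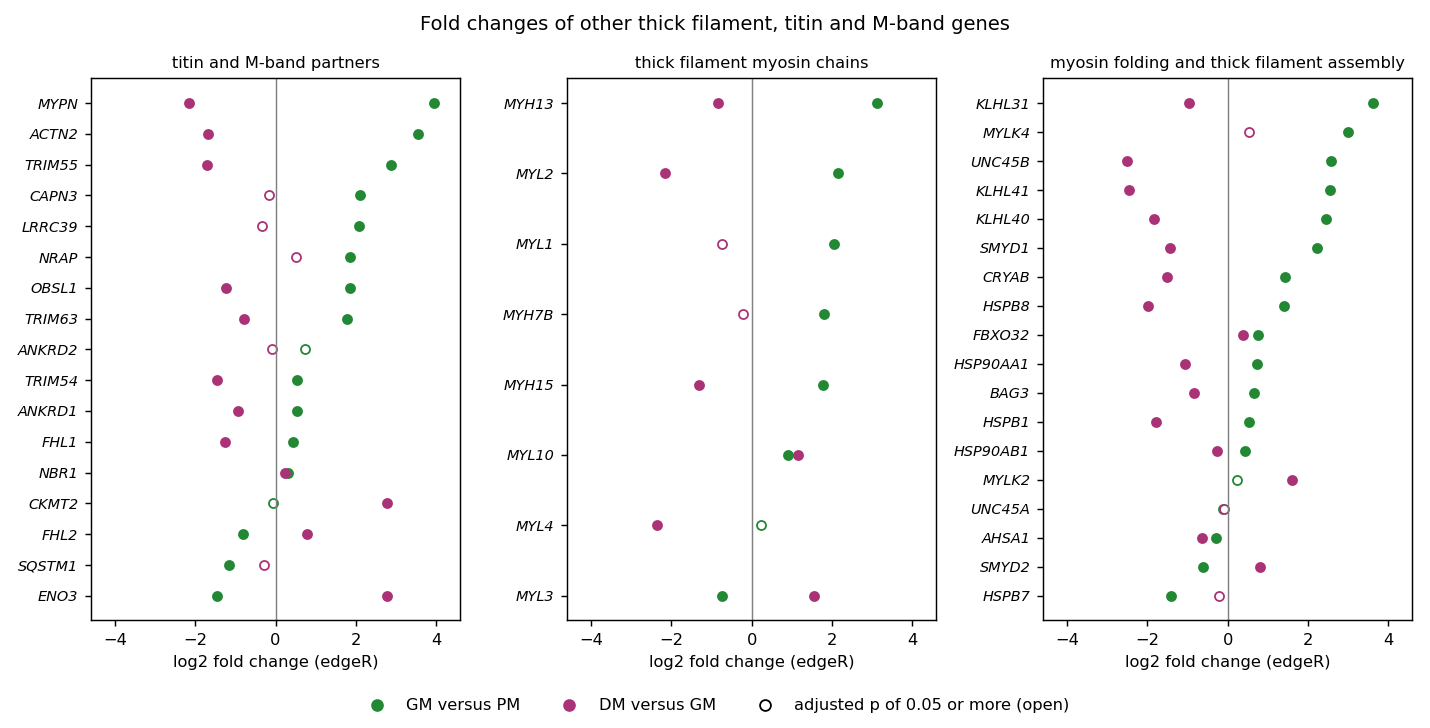
Log2 fold changes (edgeR) of the matched genes of 3 lists in GM versus PM and in DM versus GM, sorted by the former and filled where the adjusted p is below 0.05. In GM versus PM 12 of 17, 6 of 8 and 13 of 18 matched genes rose, and in DM versus GM 8, 4 and 12 of the matched genes fell.

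These list counts were repeated without GM replicate 3, an alternative chosen after seeing the data. Of all 14796 tested genes, 4834 then rose and 4979 fell in GM versus PM, and 4633 rose and 4506 fell in DM versus GM. In DM versus GM 7 titin and M-band partners then rose and 9 fell, with a median of -0.42. Of the myosin chains 2 rose and 4 fell, with a median of -0.26. Of the folding and assembly genes 4 rose and 11 fell, with a median of -0.59. In GM versus PM 12, 7 and 13 genes of the 3 lists rose and 3, 1 and 4 fell, with medians of 0.32, 1.38 and 0.67 against 0.74, 1.79 and 0.74 with all libraries.

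Summed levels of cell type markers differed between the groups as well. Of all tested genes, 32.0% rose and 34.1% fell in GM versus PM. In DM versus GM 30.8% rose and 30.3% fell, and in DM versus PM 33.5% and 32.7%. The marker counts here and for heart stand beside these shares. The summed FPKM of 7 myoblast markers was 1076 to 1150 in PM, 1251 to 2062 in GM and 413 to 482 in DM. In GM versus PM 4 of the 6 tested, MYOD1, MYF5, MYF6 and PAX3, fell and 1, DES, rose. The higher sum in GM rests mainly on DES, with means of 155 FPKM in PM and 811 FPKM in GM. In DM versus GM 5 of the 6 fell. The summed FPKM of 9 myotube markers was 737 to 799 in PM, 1906 to 3979.5 in GM and 1581 to 1650 in DM. Of these, 8 rose in GM versus PM, 2 fell in DM versus GM and 7 rose in DM versus PM. In DM versus GM 1 rose and 4 fell without GM replicate 3, and 4 fell with the gene length trend removed. Of all 14796 tested genes, 4633 rose and 4506 fell in the former fit, and 4687 fell in the latter. The summed FPKM of 10 fibroblast markers was 2437 to 2684 in PM, 1552 to 2552 in GM and 4715 to 5382 in DM. Of the 9 tested, 7 rose in DM versus GM. The 6 smooth muscle markers summed to 1574 to 1667, 377 to 491 and 2918 to 3499 FPKM, and 5 rose in DM versus GM. The 10 macrophage markers summed to 922 to 970 FPKM in PM and to no more than 250.4 FPKM in GM and DM, and all 10 fell in GM versus PM. Erythroid markers (7 genes) summed to 26.2 to 81.3 FPKM in GM and to no more than 5.12 FPKM elsewhere, and epidermal markers (6 genes) to 31.8 to 76.4 FPKM in GM and no more than 14.9 FPKM elsewhere. In GM, HBAA and HBAD made up most of the erythroid sum, with means of 28.1 and 8.69 FPKM. CDH1 and TP63 made up most of the epidermal sum, with 34.3 and 14.8 FPKM. In GM versus PM 5 of 6 tested erythroid genes rose, GATA1 not among them, and all 5 tested epidermal genes rose. ACTA2 had a mean of 1926 FPKM in DM and 283 FPKM in PM. In DM versus PM 4 of 6 smooth muscle genes rose, and TAGLN was not called. Whether cells of the listed types were present, and their part in the levels of the 6 genes, was not tested.

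MYBPC3 is the cardiac form of the C protein in mammals, so heart markers were read beside it. Of the 14 listed, 7 other than MYBPC3 were matched. They summed to 206 to 234 FPKM in PM, 360 to 806 FPKM in GM and 563 to 649 FPKM in DM. TNNI1 alone made up most of this sum in every library. The regulators NKX2-5 and GATA4 had 5 and 17 reads over all 9 libraries, BMP10 had 4 and TBX20 had 47. Of the 3 with enough reads to be tested, TBX5, HAND2 and TNNI1, all rose in DM versus PM. In DM versus GM TBX5 and HAND2 rose, and in GM versus PM TNNI1 rose and HAND2 fell. TBX5 rose from 0.0639 ± 0.0630 FPKM in PM to 0.550 ± 0.218 FPKM in DM (log2 fold change 2.87, edgeR adjusted p = 0.00249) and stayed at or below 0.700 FPKM. TNNI1, a troponin that embryonic skeletal muscle also uses, stood at 195 to 225 FPKM in PM, 352 to 797 FPKM in GM and 534 to 613 FPKM in DM. HAND2, which limb tissue also expresses, stood at 9.05 to 11.7 FPKM in PM, 8.002 to 9.91 FPKM in GM and 27.6 to 35.3 FPKM in DM (DM versus PM log2 fold change 1.43, edgeR adjusted p = 9.10e-06). The part of these markers' change in that of MYBPC3 was not tested.

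The 7729 tested genes with a symbol and at least 5 FPKM in their highest group were ranked, the 6 described here included. The ranking was by how closely their log2(FPKM + 0.1) followed each of the 6 genes over the 9 libraries, as Pearson's r. Each gene was left out of its own ranking. With 3 groups of 3 libraries, r follows the group means in large part, and it is given as a description. It does not measure the size of a change. Closest to MYBPC3 were KLHL31 (r = 0.999), SLC4A4 (r = 0.997) and MEF2C (r = 0.996). Closest to MYBPH were DES (r = 0.998), UNC45B (r = 0.997) and KIF9 (r = 0.995). For MYOM1 they were ANK3, MYO18B and TRIM55 (r from 0.997 to 0.998), for MYOM2 RPS6KA5, TSKU and DEPDC5 (r from 0.996 to 0.997), for MYOM3 NCK2, KCNJ2 and DTNA (r from 0.993 to 0.998) and for MYBPC1 PHKA1, CAMK4 and JCHAIN (r from 0.987 to 0.995).

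Among the 6 genes themselves, MYOM3 and MYBPH followed each other most closely (r = 0.990), then MYOM2 and MYBPC3 (r = 0.977). MYBPC1 had r = 0.814 with MYOM2 and r = 0.0032 with MYBPH. DES, closest to MYBPH, stood at mean levels of 155, 811 and 142 FPKM in PM, GM and DM, and MEF2C, near MYBPC3, at 9.10, 92.7 and 49.5 FPKM. Other close genes changed much less than the gene they followed. PHKA1, closest to MYBPC1, stood at 12.8, 14.7 and 18.2 FPKM in PM, GM and DM. RPS6KA5, closest to MYOM2, stood at 9.37, 24.2 and 23.7 FPKM, and NCK2, closest to MYOM3, at 29.2, 52.6 and 29.7 FPKM.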

How the data were processed

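The authors deposited 1 table per library, with raw read counts, FPKM values and gene lengths, per the file headers. HISAT and HTSeq are named in the submitters' processing notes. No version, build, annotation or strand setting is given in the sources used here. The deposited counts were used as they stand. The deposited FPKM values were used for levels. Rows without an Ensembl identifier (1.58% to 2.12% of reads) and 2 broken lines in each GM and DM table were left out.

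edgeR 4.0.16 (R 4.3.3) was run on the 14796 genes that passed filterByExpr, with TMM factors and the robust quasi-likelihood test over all 9 libraries, without a block, and with Benjamini-Hochberg adjustment over all tested genes and a threshold of 0.05. SE values come from the log2 fold change and the F statistic (its size over the root of F). Alternatives used DESeq2 1.42.0, limma 3.58.1 on FPKM, other scalings and filters, a replicate block, removal of the gene length trend (lowess, span 0.3) and leaving out each library. The edgeR, DESeq2 and limma fits were tested on simulated counts with known changes in GM versus PM only. The spread of those counts was estimated from these same data. Only a small part of the genes was changed, as many up as down, so changes as wide as those called here were not covered. Nor were genes with counts as low as those of MYBPC1 in PM among the changed ones. In that test limma was run on log2 CPM, so its use on FPKM was not covered. Intervals cover counting error only. Without strand, reads of antisense transcripts cannot be told apart. The genes described and the gene lists were chosen with earlier results of these data known. From each list of muscle genes, up to 5 called genes with the largest absolute log2 fold change are named, if their higher group mean reached 5 FPKM. Marker lists are given by sums and counts, and their genes named beside the results were chosen after their values were seen. 1 gene of the titin and M-band list is not reported here and was left out of its counts.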

Additional observations from a re-analysis of the deposited data

How the results depend on the processing

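For the 6 genes, the 18 alternatives kept direction and call in 107 of 108 values for GM versus PM, in 102 for DM versus GM and in 98 for DM versus PM. The 6 values that only lost a call are given with the results. Size moved more for MYBPC1, whose log2 fold change ran from 0.67 to 3.44, from 2.04 to 3.94 and from 2.70 to 6.01 over the alternatives in GM versus PM, DM versus GM and DM versus PM. The rest turned direction, all in genes whose log2 fold change was -0.12 to 0.01 with all libraries. For MYOM2 in DM versus GM the log2 fold change was 0.0048 on quantile-normalized FPKM and -0.34 to 0.45 over leaving out each library, the latter without GM replicate 3. For MYOM3 in DM versus PM it was -0.0094 with the replicate block and -0.28 with the length trend removed, and -0.0699 to 0.0730 over leaving out each library. For MYBPH in DM versus PM it was 0.0717 on log2(FPKM + 1), 0.0753 on log2(FPKM + 0.1) and 0.0032 with the replicate block, and -0.0487 to 0.0369 over leaving out each library. The cause was not tested. The calls among the 6 genes numbered 6, 4 to 6 and 4 over leaving out each library in GM versus PM, DM versus GM and DM versus PM, and those among all genes 8838 to 9813, 8052 to 9139 and 8875 to 10426. Falls outnumbered rises in GM versus PM among all genes (5045 and 4732), and on log2(FPKM + 1) rises did (5598 and 4107).

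Replicate numbers are shared between groups, but same-numbered libraries deviated together only weakly (correlations of -0.09 to 0.09 over 9 pairs), so the numbers were not taken to pair libraries. With the replicate block 9537, 8755 and 9580 genes were called against 9777, 9038 and 9788, and 6, 5 and 4 of the 6 genes were called as without it. MYBPC1 in PM rests on 7 to 9 reads per library, which limits the precision of its fold changes.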
